A study of Saccharomyces cerevisiae with 12 samples.

Results

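The genes described here encode 58 assembly factors of the large (60S) ribosomal subunit of budding yeast, Saccharomyces cerevisiae, and their translation was followed through a short heat shock. The members were given as a list of nucleolar, nucleoplasmic and cytoplasmic pre-60S factors. The list names genes by function and its rule uses no measured value, but it was drawn up with earlier results of these data known. All 58 were found among the 6697 genes of the count table. All 58 passed the filter on low counts, which kept 5719 genes. The cells were W303 Ade+ yeast in liquid culture whose Ded1, an RNA helicase that helps ribosomes to start on mRNAs, was fused to the red fluorescent protein mCherry in both strains. The WT strain carried Ded1-mCherry and the second strain Ded1_IDRm-mCherry, called IDRm below. There was no strain with untagged Ded1 among the samples. Each strain was kept for 10 min at 30, 40 or 42 °C, so that 6 groups of 2 libraries of ribosome footprints were available, a footprint being the piece of mRNA that a translating ribosome shields from nuclease. The labels describe duplicate pre-cultures, with each main culture split over the temperatures, so 30, 40 and 42 °C are parallel groups and not successive states. The p-values below therefore measure the spread between duplicate cultures of 1 strain each. No spike-in was recorded, so each level is a share of its library. Without matched RNA libraries here, a lower footprint level cannot be divided into less mRNA and less translation of the mRNA.

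A 60S subunit is built in the nucleolus around a long rRNA precursor. Assembly factors fold and trim the rRNA, hold places for late ribosomal proteins, escort the particle through the nuclear pore and are then released in the cytoplasm by GTPases and other enzymes. In yeast these genes belong to the ribosome biogenesis regulon, which is known to be switched off together under stress and to carry a pair of promoter elements, PAC and RRPE. PAC is bound by the repressors Tod6 and Dot6, and RRPE by Stb3.

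Both elements were frequent before the member genes. In the 300 bases before the start codon, read on both strands, the PAC core GATGAG was found in 52 of 58 members (89.7%) and in 18.8% of 5571 genes. The RRPE core AAAAATTT was found in 51 members (87.9%) and in 15.9% of all genes. Both cores occurred together before 45 members (77.6%), against 5.9% of all genes, and no member lacked both, against 71.2% of all genes. The longer forms GCGATGAG and GAAAAATTT, which contain the cores, were present in 60.3% and 55.2% of members and in 4.3% and 7.1% of all genes. Of the 58 windows, 20 reached into the coding sequence of a neighbour, and no pair of members shared a window.

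The promoters below are those of the 3 members with both cores that fell most at 40 °C in WT, followed by the member that fell most among those with the PAC core alone (DBP10) and with the RRPE core alone (SPB1). Each stretch is 100 bases of the gene's strand, from 174 to 75 bases before the start codon, in the RefSeq sequence of build R64. All lie on the plus strand, and capitals mark the PAC and RRPE core letters on either strand. In CIC1 and SPB1 an RRPE core match on each strand overlaps the other.
CIC1 (YHR052W), chrVIII:210674-210773: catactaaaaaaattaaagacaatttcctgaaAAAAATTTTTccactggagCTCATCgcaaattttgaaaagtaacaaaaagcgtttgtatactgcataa
REI1 (YBR267W), chrII:739667-739766: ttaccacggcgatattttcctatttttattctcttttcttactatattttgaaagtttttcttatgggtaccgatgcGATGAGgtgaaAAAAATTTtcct
ALB1 (YJL122W), chrX:189542-189641: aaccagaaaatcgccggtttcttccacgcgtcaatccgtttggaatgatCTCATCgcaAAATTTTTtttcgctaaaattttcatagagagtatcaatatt
DBP10 (YDL031W), chrIV:394043-394142: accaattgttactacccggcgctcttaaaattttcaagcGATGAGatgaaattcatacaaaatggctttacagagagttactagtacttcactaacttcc
SPB1 (YCL054W), chrIII:31275-31374: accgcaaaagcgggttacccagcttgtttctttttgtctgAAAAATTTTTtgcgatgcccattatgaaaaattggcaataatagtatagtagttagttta

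In CIC1, REI1 and ALB1 the cores stand within a few bases of each other, and ALB1 has a second PAC core closer to its start codon, outside the stretch shown. Over all members the first base of a PAC core lay at a median of 121 bases and that of an RRPE core at 147.5 bases before the start codon. A match is a run of letters and not a measured binding site.

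**Figure D1:**
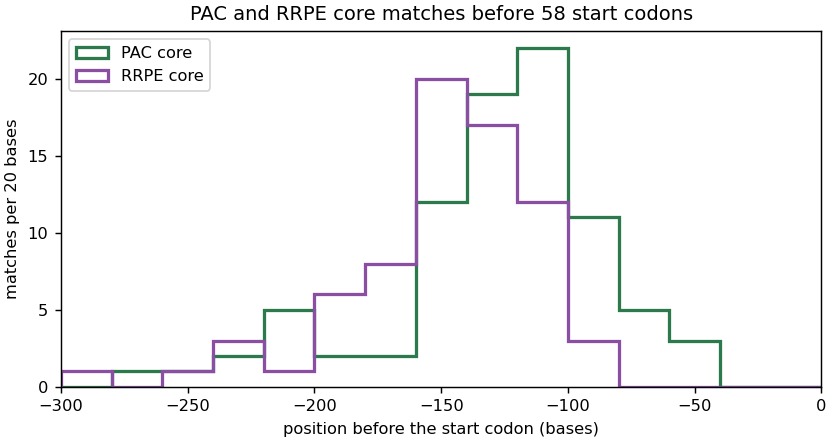
Number of PAC core and RRPE core matches per 20 bases, against the position before the start codon of the 58 member genes. PAC core matches (85) centre on a median of 121 bases and RRPE core matches (72) on 147.5 bases before the start codon.

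The libraries held 3429950 to 7851819 counts. In the unheated WT libraries the 58 genes took 0.987% and 1.15% of all footprint counts. At 40 °C their share was 0.153% and 0.181%, and at 42 °C it was 0.739% and 0.679%. In unheated IDRm the shares were 1.45% and 1.27%. They dropped to 0.150% and 0.139% in the 40 °C libraries, and the 42 °C libraries had 0.510% and 0.488%. The 3 temperatures did not overlap within a strain, and in both strains the milder shock gave the lower share. At 30 °C IDRm lay above WT, and at 42 °C below it. These percentages do not depend on the scaling between libraries, but each falls as other genes take more of the library. Their exact binomial 95% intervals, which cover counting error only, did not overlap between the duplicates of any group. In the first WT library at 30 °C the interval ran from 0.980% to 0.994%, and in the first IDRm library at 40 °C from 0.146% to 0.154%.

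**Figure D2:**
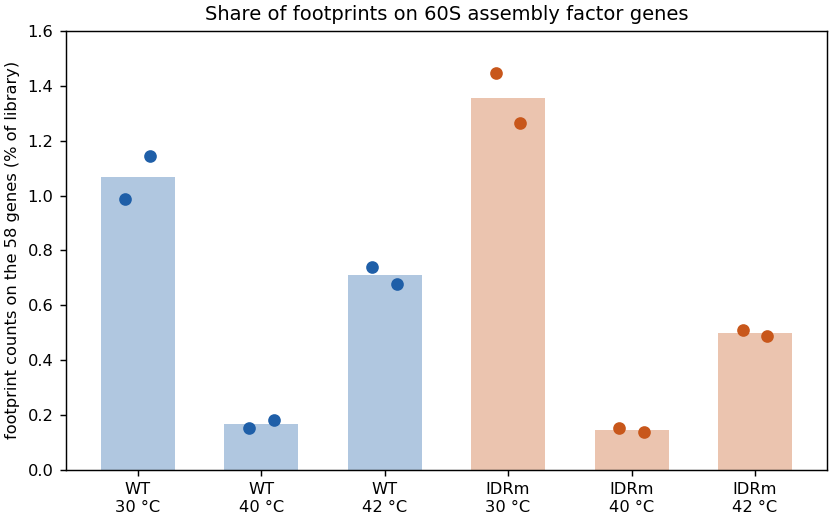
Percent of all footprint counts of a library that fall on the 58 genes, per library (points) and as the mean of 2 libraries (bars), by strain and temperature. The share is lowest at 40 °C, 0.153% and 0.181% in WT and 0.150% and 0.139% in IDRm, and intermediate at 42 °C.

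Shift from 30 to 40 °C lowered every member in both strains. In WT 58 of 58 were called lower at an adjusted p of at most 0.05 (edgeR quasi-likelihood test with Benjamini-Hochberg adjustment over all tested genes), where 39.5% of all tested genes were called lower and 36.1% higher. The median log2 change of the members was -2.76, against -0.02 for all tested genes, and 57 of 58 fell at least 2-fold, which 18.6% of all genes did. In IDRm 58 of 58 were again called lower and none higher, against 39.9% and 37.4% of all genes, with a median of -3.45. Levels are given below as CPM, counts scaled to a common library total, computed on scaled library sizes. Per kilobase of coding sequence, the median member stood at 106.1 CPM per kb in WT at 30 °C, 12.3 at 40 °C and 66.7 at 42 °C, and in IDRm at 141.7, 11.1 and 45.0.

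The order of the 3 temperatures was nearly uniform. In WT the mean level was highest at 30 °C, intermediate at 42 °C and lowest at 40 °C in 56 of 58 members. The other 2, RPF1 and SSF2, had a mean at 42 °C slightly above that at 30 °C. In IDRm all 58 had the order 30, 42, 40 °C. How many of all genes had this order was not counted. The median log2 change of all tested genes in WT was -0.024 at 40 and -0.031 at 42 °C against 30 °C, and -0.005 from 40 to 42 °C. The scaling holds these medians near 0, so they give no background for the order. The median member kept 14.5% of its 30 °C level at 40 °C in WT and 62.8% at 42 °C, and in IDRm 9.15% and 36.7%. Heat shock genes, too, lay further from 30 °C at 40 than at 42 °C. In WT, HSP104 had 29270 and 28180 CPM at 40 °C and 12910 and 12890 CPM at 42 °C. HSP12 had 2974 and 2516 CPM, and 174 and 136 CPM. In IDRm both were likewise higher at 40 °C. Any link to the members was not tested.

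**Figure D3:**
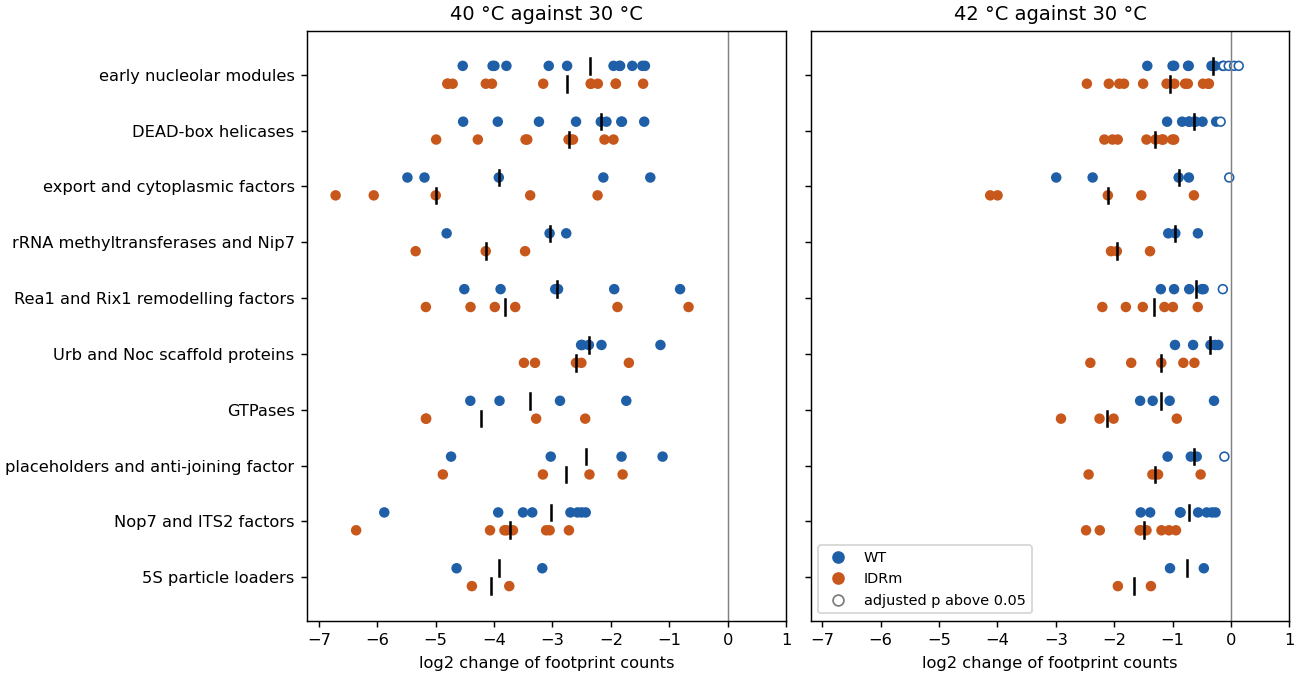
Log2 change of footprint counts from 30 °C to 40 °C (left) and to 42 °C (right) for each of the 58 genes, grouped by role, in WT and IDRm; vertical bars are role medians and open circles have an adjusted p above 0.05. All points at 40 °C lie below 0, and at 42 °C the 9 open circles are all WT genes.

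The factors that enter first form the rRNA-binding modules of the early nucleolar particle. All 12 were called lower at 40 °C in WT, with a role median of -2.35. The deepest was EBP2, a nucleolar assembly factor, whose WT levels were 250.2 and 278 CPM without heat. They dropped to 9.19 and 13.0 CPM at 40 °C, while the 42 °C libraries held 97.6 and 97.3 CPM. Its groups did not overlap, and its log2 change at 40 °C was -4.54 ± 0.13 (approximate SE). BRX1, a partner of Ebp2, changed by -4.02 ± 0.14 and NOP4, an RNA-binding protein with several RNA recognition motifs, by -3.99 ± 0.15. MAK16 changed by -3.79 ± 0.18, more than its module partners RPF1 (-1.46 ± 0.14), NSA1 (-1.84 ± 0.12) and RRP1 (-1.63 ± 0.13), 4 proteins that join the particle as 1 complex. At the shallow end of the role stood NOP16 with -1.42 ± 0.11.

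SSF1 and SSF2 are near-identical copies of 1 early assembly factor, and their counts are uncertain for that reason. Both coding sequences have 1362 bases, of which 92.07% are identical, and 18.8% of the 28-base words of each occur in the other. The first 60 bases of each coding sequence are shown to make visible how a footprint can tell the copies apart, with capitals at the 12 bases that differ. SSF1 lies on chromosome VIII and SSF2 on chromosome IV, both on the plus strand.
SSF1: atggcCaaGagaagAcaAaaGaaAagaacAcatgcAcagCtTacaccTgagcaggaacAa
SSF2: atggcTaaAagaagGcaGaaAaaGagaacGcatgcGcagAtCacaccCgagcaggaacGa

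Elsewhere the copies share runs of up to 92 identical bases, where a footprint cannot be assigned to either. As counted, SSF1 stood at 77.5 and 86.0 CPM in unheated WT, 10.3 and 13.4 CPM at 40 °C, against 68.2 and 65.5 CPM at 42 °C. SSF2 stood at 44.7 and 41.4 CPM, 8.91 and 13.0 CPM, and 43.5 and 47.1 CPM. Both fell at 40 °C, with log2 changes of -2.75 ± 0.14 for SSF1 and -1.95 ± 0.16 for SSF2. SSF2 at 42 °C overlapped its 30 °C libraries, with a change of 0.05 ± 0.12 and a 95% interval of -0.18 to 0.29.

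Of the 9 DEAD-box helicases, which remodel rRNA helices and release snoRNAs, all were called lower at 40 °C in WT with a median of -2.17. DBP7 fell furthest (-4.53 ± 0.24) and HAS1, the helicase shared by both subunits' pathways, least (-1.43 ± 0.10). DBP3 had 245.5 and 284.7 CPM in unheated WT, 17.0 and 17.4 CPM at 40 °C, against 160.0 and 160.2 CPM at 42 °C. The 5 Urb and Noc proteins, large scaffold proteins of early particles, had a WT median of -2.38. In that role URB2 was shallow (-1.15 ± 0.11), while URB1, its partner, changed by -2.38 ± 0.10.

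Nop7, Erb1 and Ytm1 form the PeBoW complex that is needed to remove the ITS2 spacer, and further factors sit on ITS2. All 8 genes of this role were called lower, with a WT median of -3.02. CIC1, which binds ITS2, showed the deepest fall of all members in WT at 40 °C. Its rank before REI1 and ALB1 was not tested. Its unheated WT levels were 193.6 and 219 CPM. Only 2.78 and 3.98 CPM were left at 40 °C, against 76.3 and 81.4 CPM at 42 °C. The groups were far apart, with a log2 change of -5.88 ± 0.18, or 58.9-fold, and an adjusted p of 4.78e-24 at 40 °C. It rests on 10 and 19 counts in the WT libraries at 40 °C, and this SE is smaller than such counts allow. NOP7 had 320.5 and 369 CPM in unheated WT, 52.9 and 67.2 CPM at 40 °C, against 297 and 273 CPM at 42 °C, a change of -2.50 ± 0.11 at 40 °C. The other PeBoW genes changed by -2.43 ± 0.11 (ERB1) and -2.69 ± 0.13 (YTM1). RPF2 and RRS1, which load the 5S rRNA particle, changed by -4.64 ± 0.15 and -3.17 ± 0.14. The SE of RPF2 is also too small for its 34 and 26 counts in the WT libraries at 40 °C.

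Among the rRNA methyltransferases and their partner, SPB1 fell most. It stood at 208 and 230.4 CPM in unheated WT, at 6.13 and 8.996 CPM at 40 °C, against 102.6 and 105.0 CPM at 42 °C, a change of -4.81 ± 0.14 at 40 °C. NOP2, the other methyltransferase, changed by -2.76 ± 0.11, and NIP7, an rRNA-binding partner of Nop8, by -3.05 ± 0.14. The 4 GTPases had a WT median of -3.39. NOG1, a nucleolar GTPase that stays on the particle until the cytoplasm, had 380.7 and 463 CPM in unheated WT, 24.8 and 30.5 CPM at 40 °C, against 201.5 and 203.8 CPM at 42 °C, with no overlap and a change of -3.91 ± 0.12 at 40 °C. NOG2, which holds the place of the export adaptor Nmd3, changed by -4.41 ± 0.20, LSG1, a cytoplasmic release GTPase, by -2.87 ± 0.12 and NUG1 by -1.74 ± 0.09.

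Placeholders keep sites for ribosomal proteins that join later, and Tif6 keeps the immature 60S from joining the small subunit. RLP24 changed by -4.74 ± 0.16 and MRT4 by -3.03 ± 0.13 at 40 °C in WT. TIF6 was one of the least changed members, with 238 and 249.9 CPM in unheated WT, 102.2 and 121.8 CPM at 40 °C, against 218 and 234 CPM at 42 °C. Its 40 °C libraries lay below all others, at -1.11 ± 0.10. At 42 °C it was not called, at -0.11 ± 0.09 with an interval of -0.29 to 0.07.

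The Rea1 and Rix1 group pulls factors off the maturing particle. MDN1 encodes Rea1, a giant AAA-type motor protein, and was the least changed member at 40 °C. It had 489.9 and 541 CPM in unheated WT, 277 and 307 CPM at 40 °C, against 385.5 and 357 CPM at 42 °C. The 3 groups did not overlap, and its change at 40 °C was -0.81 ± 0.07 with an adjusted p of 1.43e-11. RSA4, which Rea1 contacts on the particle, fell from 77.5 and 93.0 CPM to 9.47 and 12.6 CPM, a change of -2.90 ± 0.16. Among the Rix1 complex genes, IPI3 changed by -4.51 ± 0.19, IPI1 by -3.89 ± 0.25 and RIX1 by -2.95 ± 0.15. MDN1 has the longest coding sequence of the members, with 14733 bases. Over the 58 members, the WT change at 40 °C had a Pearson r of 0.28 and a Spearman rho of 0.21 with the log10 of coding length. This is a description across genes of the same libraries.

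Export and cytoplasmic factors held both deep and shallow changes. ALB1, a partner of the export factor Arx1, had 74.4 and 86.3 CPM in unheated WT, 1.67 and 2.51 CPM at 40 °C, against 10.1 and 9.80 CPM at 42 °C. REI1, the cytoplasmic factor that removes Arx1 and Alb1, had 53.5 and 69.5 CPM in unheated WT, 1.95 and 0.837 CPM at 40 °C, against 11.5 and 11.7 CPM at 42 °C. Their changes at 40 °C were -5.19 ± 0.22 and -5.48 ± 0.32. These rest on few reads, since ALB1 had 6 and 12 counts and REI1 7 and 4 counts in the WT libraries at 40 °C. Their SEs are likewise too small. In all, 9 members had a count below 20 in at least 1 library at 40 °C. ARX1 itself changed by -3.92 ± 0.14. NMD3, the adaptor to the exportin Crm1, changed by only -1.32 ± 0.10, from 197 and 220.1 CPM to 74.1 and 90.6 CPM. REI1 overlaps a gene on the other strand over 453 bases, whose mean count was 0.0.

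**Figure D4:**
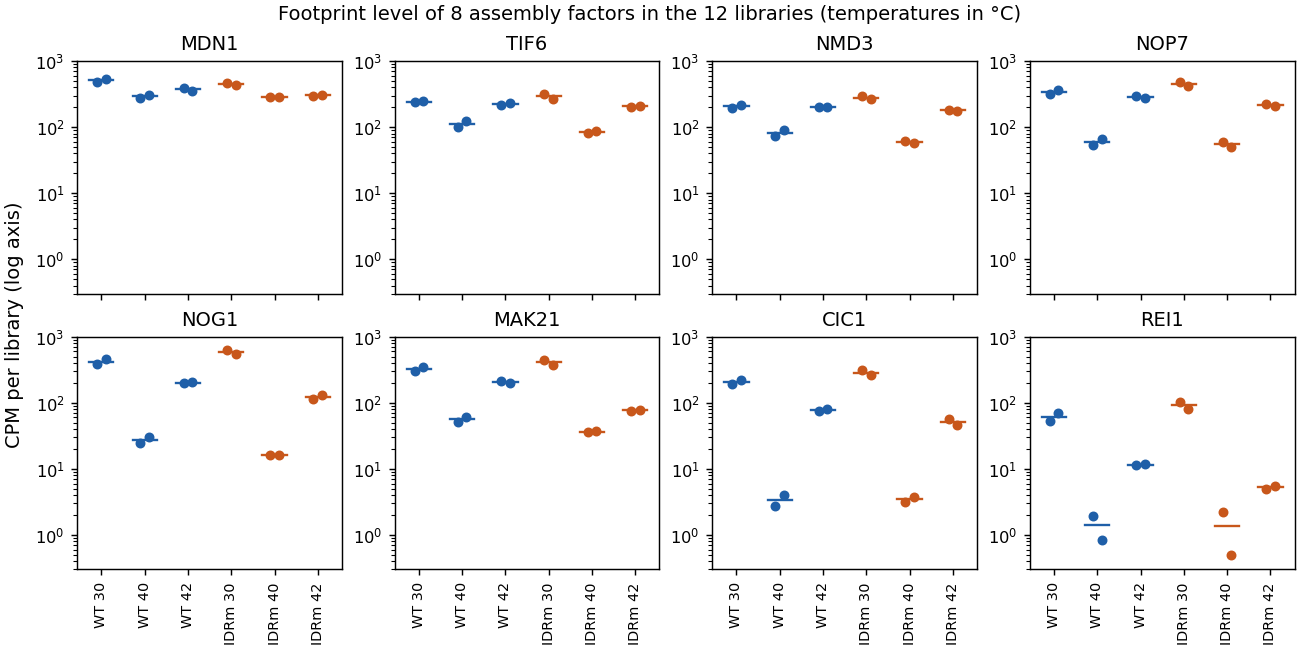
Footprint level in CPM (log axis) of 8 genes in each of the 12 libraries (points) with the mean of 2 libraries (lines), from the least changed gene at 40 °C, MDN1, to genes with the deepest falls, CIC1 and REI1. In every panel the libraries at 40 °C are the lowest of their strain, with MDN1 in IDRm nearly level between 40 and 42 °C.

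At 42 °C the same genes were lower than at 30 °C by much less. In WT 49 of 58 were called lower and none higher, where 33.6% of all tested genes were called lower and 30.0% higher. The median was -0.67, and 14 fell at least 2-fold, against 8.66% of all genes. ALB1 (-2.99 ± 0.15) and REI1 (-2.37 ± 0.19) were again lowest, followed by LSG1 (-1.56 ± 0.10), NOP53 (-1.55 ± 0.12), a factor that recruits the exosome to ITS2, and EBP2 (-1.43 ± 0.09). The 9 that were not called were DBP9, RRP1, RIX1, RRP14, TIF6, NOP16, NMD3, SSF2 and RPF1. NMD3 lay nearest to no change, with 203 CPM in one WT library and 204 CPM in the other at 42 °C, between its 197 and 220.1 CPM at 30 °C. Its change was -0.03 ± 0.09 with an interval of -0.21 to 0.15.

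In IDRm all 58 were called lower at 42 °C and none higher, against 36.7% and 36.8% of all genes, with a median of -1.45, and 43 fell at least 2-fold, against 15.7% of all genes. REI1 (-4.12 ± 0.22), ALB1 (-3.997 ± 0.16), NOG2 (-2.91 ± 0.15), CIC1 (-2.48 ± 0.11) and EBP2 (-2.47 ± 0.10) fell most, and SSF2 least (-0.38 ± 0.12). At 40 °C in IDRm the deepest were ALB1 (-6.71 ± 0.24), CIC1 (-6.36 ± 0.17), REI1 (-6.06 ± 0.29), SPB1 (-5.34 ± 0.14) and IPI3 (-5.17 ± 0.19), and MDN1 was the shallowest (-0.67 ± 0.07). The IDRm libraries at 40 °C held only 6 and 3 counts of ALB1, 13 and 15 of CIC1 and 9 and 2 of REI1. IPI3 had 24 and 10 counts there and SPB1 34 and 33. The SEs of these genes at 40 °C are smaller than such counts allow. The ranking of the members was alike in the strains, which share no libraries. The changes of the 58 genes had a Pearson r of 0.95 between WT and IDRm at 40 °C and 0.91 at 42 °C, as a description across genes.

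Directly compared, 42 °C lay above 40 °C for 58 of 58 members in WT, where 29.8% of all genes were called higher and 29.4% lower, with a median of 2.15. CIC1 (4.495 ± 0.20), SPB1 (3.74 ± 0.15) and RLP24 (3.65 ± 0.18) differed most, and MDN1 least (0.35 ± 0.08). In IDRm 57 of 58 were called higher at 42 than at 40 °C and none lower, against 27.3% and 27.0% of all genes, with a median of 1.84. The exception was MDN1, with 282 and 283 CPM at 40 °C and 298 and 308 CPM at 42 °C, a difference of 0.10 ± 0.08 and an interval of -0.06 to 0.26. Under scaling by library size alone MDN1 was called too, at 0.31 (adjusted p = 0.000964), which made the count 58.

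The strains differed in opposite directions at 30 and 42 °C. Without heat, 45 of 58 members were called higher in IDRm than in WT and 1 lower, where 9.58% of all genes were called higher and 6.75% lower. The differences were small, with a median of 0.45 on the log2 scale and no call of 2-fold or more, which 0.664% of all genes had upwards and 0.839% downwards. DBP7 (0.69 ± 0.13), RSA4 (0.64 ± 0.11) and NSA2 (0.63 ± 0.08), a factor recruited late in the nucleolus, differed most. SDA1, a protein of the pre-60S particle in the nucleoplasm, was the 1 lower, at 164 and 186.0 CPM in WT and 151 and 136 CPM in IDRm (-0.28 ± 0.09, adjusted p = 0.028). That call was lost with DESeq2 (adjusted p = 0.202), with the libraries of the comparison alone, and without the second WT or the second IDRm library at 30 °C. SPB4 lay nearest to no difference, at 0.06 ± 0.10. The WT duplicates at 30 °C were themselves unlike in heat shock genes, HSP104 having 705 and 1069 CPM and SSA4 158 and 484 CPM, with 903 and 1166 CPM and 204 and 351 CPM in IDRm. Whether this bears on the strain difference was not tested. Leaving out 1 library at a time, the count of members higher in IDRm ran from 25, without the first IDRm library at 30 °C, to 50.

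At 40 °C fewer members differed between the strains. In all, 12 were called lower and 2 higher in IDRm, that is 20.7% and 3.4% of the members, beside 14.5% and 11.4% of all genes, with a median of -0.15. At 2-fold or more the count was 1 lower and 0 higher, against 1.26% and 1.29% of all genes. RRP12, an export factor of both subunits, differed most, with 72.9 and 92.5 CPM in WT and 37.4 and 43.3 CPM in IDRm. These did not overlap (-1.05 ± 0.14, adjusted p = 7.21e-06). RSA4 (-0.86 ± 0.27), NOG1 (-0.78 ± 0.18), SSF1 (-0.77 ± 0.23) and MAK21 (-0.64 ± 0.14) were also lower, while RPF2 (0.69 ± 0.25) and NOP16 (0.50 ± 0.12) were higher. Without the second WT library at 40 °C the count lower dropped to 2, and RSA4, NOG1, SSF1 and RPF2 were no longer called. SSF1 and RPF2 also lost their calls without either IDRm library at 40 °C, RSA4 without the second of these, and RPF2 under scaling by library size. It dropped to 7 without the first IDRm library and to 6 without the second IDRm library at 40 °C. CIC1 did not differ detectably, at -0.00 ± 0.40 with a wide interval of -0.81 to 0.80.

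At 42 °C 37 members were called lower in IDRm and none higher, where 20.7% of all genes were called lower and 20.4% higher, with a median of -0.37. At least 2-fold lower were 4, against 3.76% of all genes. MAK21, a Noc protein of early particles, stood apart. It had 211 and 200.6 CPM in WT and 75.8 and 78.1 CPM in IDRm at 42 °C (-1.42 ± 0.10, adjusted p = 1.4e-12), although at 30 °C it had 304 and 346 CPM in WT and 450.0 and 368 CPM in IDRm. REI1 (-1.13 ± 0.32), DBP6 (-1.06 ± 0.14), NOG2 (-1.01 ± 0.17) and RLP24 (-0.77 ± 0.12) followed, and DBP10 lay nearest to no difference (0.02 ± 0.11). REI1 was no longer called without the first WT library (adjusted p = 0.0581) or the first IDRm library (adjusted p = 0.0809) at 42 °C. The direction at 42 °C was below WT for 56 members and at 30 °C above WT for 56. The median difference of all genes was 0.003 at 42 °C and -0.003 at 30 °C. Both calls, higher at 30 °C and lower at 42 °C, were met by 29 members. The share of all genes meeting both was not counted, but cannot exceed the 9.58% called higher at 30 °C. Heat shock genes were higher in IDRm at 42 °C. HSP104 had 12910 and 12890 CPM in WT and 17410 and 17650 CPM in IDRm. HSP12 had 174 and 136 CPM in WT and 1087 and 954 CPM in IDRm. Whether this goes with the lower members was not tested.

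**Figure D5:**
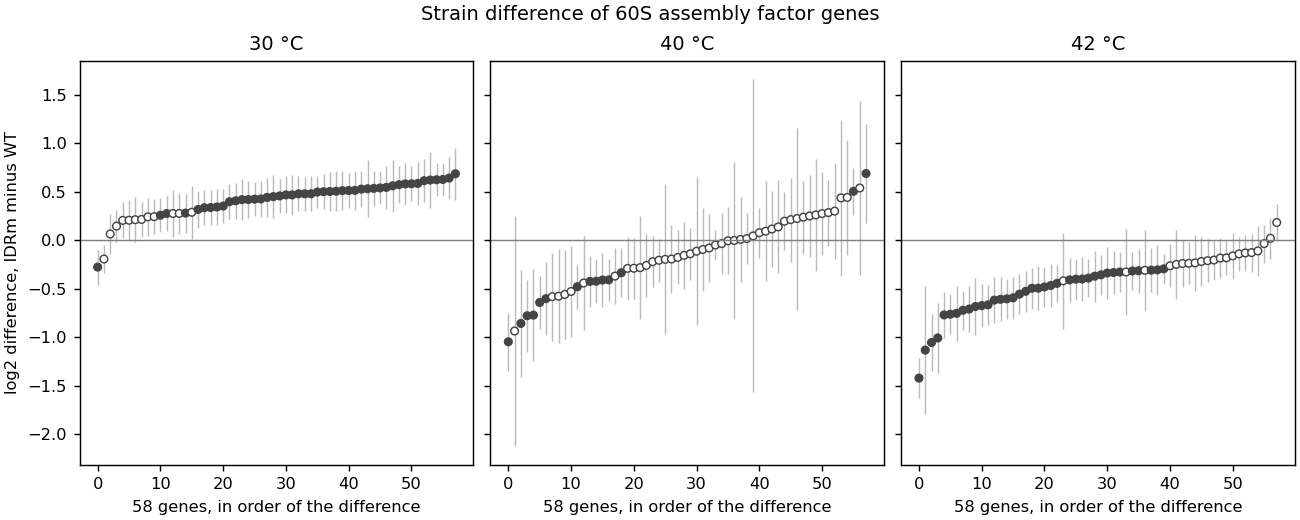
Log2 difference IDRm minus WT for the 58 genes at 30, 40 and 42 °C, each panel in order of the difference, with 95% intervals; filled points have an adjusted p of at most 0.05. Filled points lie mostly above 0 at 30 °C (45 higher, 1 lower) and only below 0 at 42 °C (37 lower).

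The difference between the strains in the heat response was tested as an interaction, IDRm change minus WT change. From 30 to 40 °C, 23 members fell further in IDRm and none less, where 8.52% of all genes had a negative and 3.81% a positive call. The median was -0.54, and 8 differed at least 2-fold, against 1.05% of all genes. RSA4 (-1.50 ± 0.29), SSF1 (-1.29 ± 0.25), NOG1 (-1.26 ± 0.20) and RRP12 (-1.25 ± 0.17) had the largest differences among those called. From 30 to 42 °C, 53 fell further in IDRm and none less, against 16.1% and 11.4% of all genes, with a median of -0.82, and 18 differed at least 2-fold, against 3.9%. MAK21 (-1.76 ± 0.14), REI1 (-1.75 ± 0.34), NOG2 (-1.57 ± 0.21) and MAK16 (-1.37 ± 0.17) led. All 23 members called at 40 °C were also called at 42 °C, and these comparisons share their 30 °C libraries. MDN1 was called in neither, with -0.10 ± 0.10 at 42 °C and an interval of -0.31 to 0.11. By construction each interaction also holds the strain difference at 30 °C, where most members were higher in IDRm. The count at 40 °C was 12 without the second WT library at 40 °C. An unadjusted p below 0.05 was reached by 32 members at 40 °C and 57 at 42 °C, and DESeq2 called 19 and 48 lower and 0 higher. The shares of all genes under these rules were not counted, so these counts cannot be set against a background. Comparing the 42 and 40 °C groups, the excess at 42 °C was smaller in IDRm for 8 members, against 3.85% of all genes, among them RLP24 (-1.21 ± 0.31), RPF2 (-1.16 ± 0.27), MAK16 (-1.01 ± 0.31) and DBP3 (-0.88 ± 0.22), and larger for none, against 6.24%. At least 2-fold were 3, against 0.892%. These calls were fragile. The count was 3 without the first IDRm library at 40 °C, 4 without the first WT library at 40 °C or the second IDRm library at 42 °C, and 5 without the second IDRm library at 40 °C or the first WT library at 42 °C. MAK16 lost its call without the first WT library at 40 °C and without any single library of IDRm at 40 or 42 °C or of WT at 42 °C, RLP24 and RPF2 without the second WT library at 40 °C, and RLP24 and DBP3 without the first IDRm library at 40 °C.

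At 40 °C other lists of ribosome production genes were also mostly lower in WT. At 42 °C the calls in the assembly factor and RNA polymerase I lists were still nearly all lower, while ribosomal protein genes had calls of both signs. The shares to read them against are those of all genes, 39.5% lower and 36.1% higher at 40 °C and 33.6% lower and 30.0% higher at 42 °C. Of 30 further pre-60S factors, 29 were called lower and none higher at 40 °C in WT (median -1.997), and 18 lower and 1 higher at 42 °C. PUF6 (-4.60 ± 0.13), an RNA-binding protein of the nucleolus, ECM1 (-4.48 ± 0.37), an export factor, and SYO1 (-3.60 ± 0.18), the chaperone that imports proteins of the 5S particle, fell most at 40 °C. All 63 factors of the small subunit's processome and pre-40S particles were called lower at 40 °C (median -2.71), and 47 lower and 3 higher at 42 °C. All 8 RNA polymerase I genes were called lower at 40 °C (median -2.50) and 6 at 42 °C. Of 81 genes for ribosomal proteins of the large subunit, 76 were called lower and 2 higher at 40 °C, with a median of -1.21. At 42 °C 43 were lower and 12 higher, 4 of these at least 2-fold, among them RPL36B (2.02 ± 0.13) and RPL41B (1.31 ± 0.07). Both have a near-identical paralog, so their counts are uncertain. The strain differences were not particular to the members. Of the 63 small-subunit factors, 53 were called higher in IDRm at 30 °C and 38 lower at 42 °C. For the 30 further pre-60S factors these were 17 and 13, and neither list had opposite calls. All genes had 9.58% higher at 30 °C and 20.7% lower at 42 °C. Of the 81 ribosomal protein genes, 3 were higher and 2 lower at 30 °C, and 2 higher and 39 lower at 42 °C. Among members, the RRPE core alone went with a median change at 40 °C of -3.62 (6 genes), both cores with -2.75 (45 genes) and the PAC core alone with -2.16 (7 genes), ranges that overlapped.

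The 12 listed regulators of ribosome biogenesis genes included 4 called higher and 6 lower at 40 °C in WT, where 36.1% of all genes were higher and 39.5% lower, so that these counts lie near the background. TOD6, a PAC-binding repressor, had 60.8 ± 4.65 CPM at 30 °C in WT (SD, n = 2), 9.65 ± 1.44 CPM at 40 °C and 28.7 ± 0.92 CPM at 42 °C, a change of -2.62 ± 0.16 at 40 °C. Its paralog DOT6, named here after its values were seen, had 55.3 ± 3.19, 98.4 ± 10.1 and 63.2 ± 1.08 CPM, a change of 0.81 ± 0.10. The repressors of 1 element thus had footprint changes of opposite sign. FHL1, a factor at ribosomal protein promoters, changed by -1.42 ± 0.17 and SCH9, a kinase downstream of TORC1, by -1.19 ± 0.10. At 42 °C the strain-by-heat difference was -1.58 ± 0.19 for TOD6, -1.28 ± 0.20 for IFH1, the coactivator of Fhl1, and 1.06 ± 0.15 for SCH9. Of the 12 regulators, 2 had a positive and 2 a negative call there, where 11.4% and 16.1% of all genes had. The median of the 12 was -0.001. DED1, whose product carried the tag in both strains, had 1052 to 1457 CPM over the 12 libraries and ADE2 137.2 to 526.2 CPM. DED1 counts do not check the strain label, since they do not separate the alleles.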

How the data were processed

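Ribosome footprints were sequenced in 12 libraries, and the authors deposited 1 table of raw counts per gene, which was used as deposited. Per the submitters' processing notes, STAR 2.5.2b, Bowtie2 2.2.6, cutadapt 1.17 and bcl2fastq 2.17.1.14 were used with genome build R64. For their roles, the strand setting and the counting rule the sources used here give nothing. No column of per-sample values was left unused (0). Groups came from the labels' strain and temperature. The members, by function, and the other gene lists were chosen with earlier results of these data known.

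Counts were fitted with edgeR 4.0.16 in R 4.3.3, with 1 mean per group, trimmed mean of M-values scaling, edgeR's filter on low counts (minimum count 10, minimum total 15), and robust quasi-likelihood tests (residual degrees of freedom 6, prior 25.5 at the median). Each of 12 comparisons was adjusted by Benjamini-Hochberg over 5719 genes and called at 0.05. Standard errors are the absolute log2 change divided by the square root of F, and are approximate. The code was tested on simulated data. Duplicates differed by more than sampling noise in every group. Sequences, positions and names came from RefSeq's R64 annotation, in which all 58 identifiers matched and MDN1 is named REA1.

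In each comparison up to 5 called members that fell most, up to 3 that rose most and the member nearest to no change were eligible for naming. Not all are given. Left out were, among others, CIC1, SPB1 and BRX1, which rose most from 40 to 42 °C in IDRm. So were NOP16 and YTM1, nearest to no strain-by-heat difference from 30 to 40 and from 40 to 42 °C. NOP7, NOG1, TIF6, NMD3, REI1, MDN1, SSF1 and SSF2 were always eligible, as were up to 4 members per strain-by-heat difference and up to 3 called genes of each other list. Other members are named by role. Alternatives were other scalings, no filter, the Wald test of DESeq2 1.42.0, the libraries of a comparison alone, replicate blocks, a 2-fold minimum, each library left out, and shares without the 10 most counted genes.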

Additional observations from a re-analysis of the deposited data

Results flagged for a closer look

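Differences between the strains in their response to heat were singled out because the test of the difference itself (edgeR quasi-likelihood interaction, Benjamini-Hochberg over all tested genes) passed for each. Values are the log2 change in IDRm minus that in WT.

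From 30 to 40 °C, 23 members fell further in IDRm. Among those named, RSA4 had -1.50 (adjusted p = 0.000436), SSF1 -1.29, NOG1 -1.26, RRP12 -1.25, NMD3 -0.90, TIF6 -0.68 and NOP7 -0.55 (adjusted p = 0.0201). SSF1 shares sequence with SSF2. The count was 12 without the second WT library at 40 °C, and NOP7 was then no longer called. NOP7 also lost its call without the first WT library at 30 °C, the first IDRm library at 30 °C or the second IDRm library at 40 °C, under scaling by library size (adjusted p = 0.0735) and with the libraries of the comparison alone (adjusted p = 0.0547).

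From 30 to 42 °C, 53 members fell further in IDRm. MAK21 had -1.76 (adjusted p = 1.65e-11), REI1 -1.75, NOG2 -1.57, MAK16 -1.37, NOG1 -1.20, SSF1 -0.83, NOP7 -0.80, NMD3 -0.61 and TIF6 -0.41 (adjusted p = 0.0143). TIF6 lost its call without the first IDRm library at 30 °C (adjusted p = 0.152) or at 42 °C (adjusted p = 0.0817). REI1 had 23 counts in each IDRm library at 42 °C. Heat shock genes differed between the WT duplicates at 30 °C and between the strains at 42 °C. Their part in these differences was not tested.

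The excess of the 42 °C over the 40 °C group was smaller in IDRm for 8 members, a count of 3 to 7 when each library was left out. RLP24 had -1.21, RPF2 -1.16, MAK16 -1.01 and DBP3 -0.88. RPF2 had 9.47 and 5.44 CPM in the WT libraries at 40 °C.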

How the results depend on the processing

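For the members listed for each comparison, no called value changed sign under the alternatives run. Some values near 0 that were not called did, such as NMD3 in WT at 42 °C (0.03 with scaling by library size). The signs of the other members were not checked. The counts at 40 °C against 30 °C stayed at 58 lower in both strains under each alternative except the 2-fold minimum, which gave 57. A 2-fold minimum lowered the other counts to 14 lower in WT at 42 °C, 0 higher and 0 lower in IDRm against WT at 30 °C, 0 higher and 1 lower at 40 °C, 4 lower at 42 °C, and 8, 18 and 3 lower for the strain-by-heat differences from 30 to 40, 30 to 42 and 40 to 42 °C. The 1 member lower in IDRm at 30 °C became 2 under scaling by library size, and 0 with DESeq2 and with the libraries of the comparison alone. The 2 members higher at 40 °C became 1 under scaling by library size. Leaving out each library in turn gave, in IDRm against WT, 25 to 50 higher and 0 to 2 lower at 30 °C, 1 to 2 higher and 2 to 15 lower at 40 °C, and 28 to 36 lower at 42 °C. For the strain-by-heat differences it gave 12 to 28 lower from 30 to 40 °C, 45 to 55 from 30 to 42 °C, and 3 to 7 lower and 0 to 1 higher from 40 to 42 °C, and for WT at 42 °C 43 to 50 lower. The causes were not tested. Apart from the 2-fold minimum, the shares of all genes called under the alternatives, replicate blocks included, were not counted. Those counts show stability and have no background. Scaling by library size moved the median of all genes by -0.26 (WT, 40 against 30 °C), -0.22 (IDRm) and -0.11 (IDRm against WT at 42 °C), and by 0.30 and 0.23 from 40 to 42 °C. Without the 10 most counted genes, the members' share was 1.24% in WT at 30 °C and 0.210% at 40 °C.

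The replicate numbers were not treated as pairs. Within a strain, where a split culture could be shared, the deviations of same-numbered libraries had correlations of -0.012 to 0.022. Between the strains these were -0.088 to 0.154. With a replicate block for culture within strain, 46 members were higher in IDRm at 30 °C, 16 lower at 40 °C and 39 lower at 42 °C, and 24, 54 and 10 lower for the strain-by-heat differences; no named call was lost.

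With 2 libraries a group, small differences are poorly resolved. At 40 °C the low counts of REI1 and ALB1 limit any comparison of the strains.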
